A study of Mus musculus with 12 samples.

Results

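The 10 genes described here encode enzymes that put an acyl group on, or take it off, the nitrogen of amino acids and cysteine conjugates. They are 6 copies of the NAT8 family (Nat8, Nat8f1, Nat8f2, Nat8f5, Nat8f6 and Nat8f7), the glycine conjugation genes Keg1 and Glyat, and the aminoacylase genes Acy1 and Acy3. They were chosen by name, with results of these data known, and were matched by Ensembl number to 10 of the 32199 genes listed for the PAD4 set and 10 of the 31719 listed for the IL-33 set. Their differences between knockout and wild-type kidneys are therefore given as a description, with no p-value.

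The enzyme NAT8 sits in the endoplasmic reticulum of proximal tubule cells and acetylates cysteine conjugates, which come from glutathione conjugates, into mercapturic acids that leave in the urine. Mice carry a cluster of NAT8-like genes, and the other copies resemble Nat8 in sequence, though less is known of what each acetylates. Glyat is the mitochondrial glycine N-acyltransferase that joins benzoyl-CoA and related acyl-CoAs to glycine to make hippurate and its relatives, and Keg1 (kidney expressed gene 1) belongs to the same glycine N-acyltransferase family. Acy1 and Acy3 act in the opposite direction: aminoacylase 1 frees amino acids from their N-acetyl forms, and aminoacylase 3 removes the acetyl group from mercapturic acids and from N-acetylated aromatic amino acids. In the kidney these steps are known mainly from the proximal tubule.

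Kidney RNA from 12 mice was sequenced, 3 in each of 4 groups: Pad4 knockout (PAD4 knockout below), the wild type of the same set, Il33 knockout, and another wild type of that second set. All 12 were labelled males of 8 weeks (the wild type C57BL/6) that had lost a kidney, recovered for 3 weeks, gone without water for 24 h and received furosemide, a loop diuretic, 20 min before the contrast agent iodixanol, so every group carries the contrast injury and no uninjured kidney was compared. The remaining kidney was taken 24 h after iodixanol. The labels place the PAD4 set in batch 1 and the IL-33 set in batch 2, so each knockout was compared only with the wild type of its own set. Values are FPKM, fragments per kilobase of transcript relative to the fragments mapped, and the sequencing depth behind them is unknown.

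Several features of the libraries bear on what follows. Padi4 was at 0.217, 0.497 and 0.187 FPKM in PAD4 knockout kidneys, against 0.704, 1.06 and 1.67 in wild type (limma adjusted p = 0.0147). Il33, not the targeted gene there, was at 0.889, 1.58 and 1.28 FPKM in PAD4 knockout, against 3.57, 5.29 and 3.28 in wild type (limma adjusted p = 0.00208). In the IL-33 set Padi4 was at most 0.0220 FPKM in any library, wild type included. The part of the colon and lung signal described below in the Padi4 difference was not tested. Il33 was at 1.14, 0.616 and 1.02 FPKM in the libraries labelled IL-33 knockout, against 1.71, 1.13 and 3.64 in wild type (limma adjusted p = 0.0990), so the transcript does not by itself set the groups apart, and those libraries are called labelled IL-33 knockout throughout. Xist, a transcript of female cells, was at 0.401, 1.52 and 0.389 FPKM in PAD4 knockout, against 2.00, 1.78 and 4.97 in wild type (limma adjusted p = 0.00988), and at most 0.0151 FPKM in any library of the IL-33 set, although all animals are labelled male. Ddx3y, a Y-linked gene, was at 1.97 to 2.70 FPKM in all libraries of the PAD4 set, and the part of this Xist difference in the results was not tested. Colon and lung genes were present in every library of the PAD4 set, although all are labelled kidney. Smooth muscle genes were present in every library of both sets, and kidney arteries hold smooth muscle too. Summed FPKM of 16 colon markers was 165 to 439 in PAD4 knockout and 785 to 1318 in wild type, with none of the 16 at 0 in any library, and PAD4 knockout library 2 held the most of the 3 knockout libraries. Summed FPKM of 11 lung markers was 43.1 to 216 in PAD4 knockout and 299 to 855 in wild type. In the IL-33 set, the 12 colon markers listed summed to 5.97 to 8.20 FPKM in labelled IL-33 knockout and 20.7 to 42.0 in wild type, with 4 to 7 of them at 0 in each library. Genes encoded in the mitochondrion took 52.0% to 60.0% of all FPKM in the PAD4 set and 24.1% to 29.2% in the IL-33 set. In bulk tissue, fewer cells of a type and less RNA per cell cannot be told apart.

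The NAT8 copies differ in how far their reads can be told from one another. In GENCODE coding sequences, Nat8f6 and Nat8f7 were 99.6% identical, and a copy outside the 10 genes, Nat8f3, was 99.7% identical to Nat8f6 and 99.6% to Nat8f7. Of all 100-base stretches in its transcripts, Nat8f7 shared 68.3% exactly with another family gene and Nat8f6 shared 50.1%. These values are therefore uncertain as values of single genes, because the authors' counting could have moved fragments between Nat8f3, Nat8f6 and Nat8f7. The other copies stand apart: the shared part was 6.80% for Nat8f1, 6.78% for Nat8f2, 4.17% for Nat8f5 and 1.07% for Nat8. Nat8 and Nat8f1 were 84.2% identical in coding sequence, and Nat8 and Nat8f5 80.1%. Nat8f5 shares its few stretches with Nat8f6. Keg1, Glyat and Acy1 shared no 100-base stretch with any other gene, Acy3 shared 2.27% of its stretches with a predicted gene, and Glyat and Keg1 were 73.1% identical to each other.

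**Figure D1:**
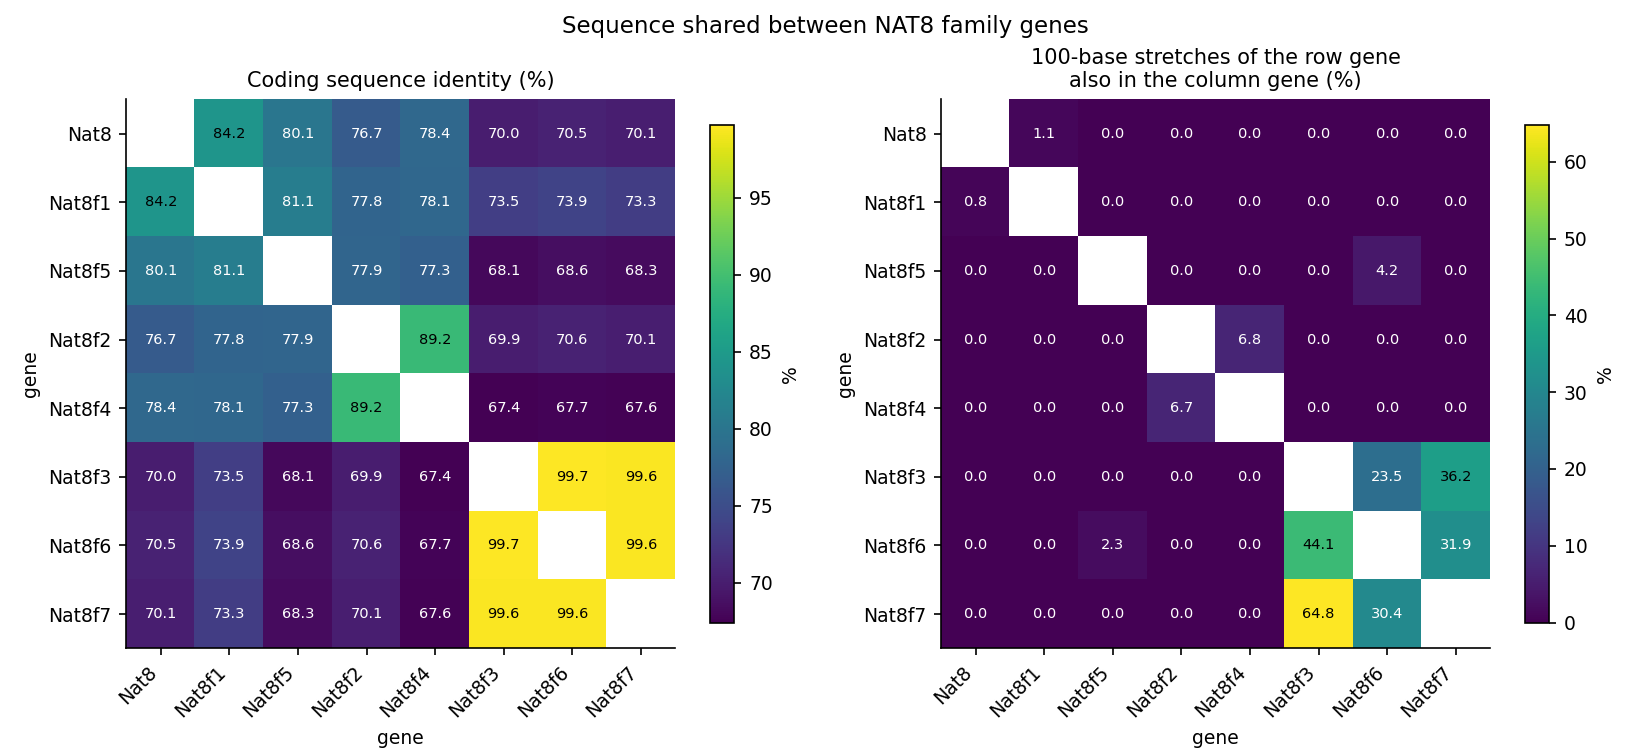
Coding sequence identity (left) and the percentage of the row gene's 100-base stretches found exactly in the column gene (right) for 8 NAT8 family genes, from GENCODE transcripts. Nat8f3, Nat8f6 and Nat8f7 form a block of near identity at 99.6% to 99.7%, while Nat8 shares 1.07% of its stretches with Nat8f1.

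The promoters were read because 4 copies were higher in labelled IL-33 knockout and Nat8f5 was lower. RefSeq promoter windows (GRCm38.p6) were searched in the 250 bases before the start for CCAAT, a short promoter motif, on both strands and without mismatches. The 150 bases before the start are shown 5′ to 3′ for 4 of the NAT8 copies described here, those with a match in this stretch, with the match in capitals.
Nat8f6 (chr6:85809878-85810027, minus strand): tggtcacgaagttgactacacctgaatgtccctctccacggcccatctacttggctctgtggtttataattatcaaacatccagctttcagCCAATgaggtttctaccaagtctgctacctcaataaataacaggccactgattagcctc
Nat8f7 (chr6:85708562-85708711, minus strand): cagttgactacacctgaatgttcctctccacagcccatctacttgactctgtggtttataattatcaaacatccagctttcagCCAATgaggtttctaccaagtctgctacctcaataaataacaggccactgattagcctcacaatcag
Nat8f2 (chr6:85869138-85869287, minus strand): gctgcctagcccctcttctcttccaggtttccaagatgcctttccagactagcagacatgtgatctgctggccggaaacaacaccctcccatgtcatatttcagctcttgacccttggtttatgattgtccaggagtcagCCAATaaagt
Nat8f5 (chr6:85820973-85821122, minus strand): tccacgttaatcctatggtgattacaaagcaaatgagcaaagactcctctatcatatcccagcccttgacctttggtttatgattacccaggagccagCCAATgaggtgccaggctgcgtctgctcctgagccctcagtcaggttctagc
The windows of Nat8f6 and Nat8f7 were 97.9% identical over 292 aligned bases, with 146 identical bases in a row. The match in Nat8f6 lies 59 to 55 bases before the start, in Nat8f7 67 to 63, in Nat8f5 52 to 48 and in Nat8f2 10 to 6. By this search 33.8% of 32851 promoters hold CCAAT, so a match is common. Nat8f5, which was lower in labelled IL-33 knockout, holds it as the other 3 do. Nat8, whose groups overlapped there, has matches farther out, at 241 to 237 and 199 to 195 bases before an annotated start. Nat8f4, a copy outside the 10 genes that passed in neither comparison, has one at 28 to 24. The windows of Nat8f5 and Nat8f6 were 64.6% identical over 263 aligned bases, and those of Nat8f2 and Nat8f6 66.4% over 235. The window of Nat8f1 holds no match. Whether the motif has a part in these changes was not tested.

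Levels in the labelled IL-33 knockout showed the family most clearly, since the copies went different ways. Nat8f1 was at 206, 138 and 171 FPKM in labelled IL-33 knockout, against 8.94, 11.9 and 10.7 in wild type. The groups lie far apart, with a mean of 172 ± 34.0 against 10.5 ± 1.48 FPKM (SD, n = 3 each), a ratio of 16.4, and the change in log2(FPKM + 1) was 3.90 ± 0.16 (SE). This change ranks 9 among 14513 genes tested, counted from the largest rise. Nat8f6 was at 96.2, 65.4 and 60.0 FPKM in labelled IL-33 knockout, against 5.58, 9.28 and 6.75 in wild type, a change of 3.18 ± 0.22. Nat8f7, its near twin, was at 18.9, 13.3 and 14.2 FPKM in labelled IL-33 knockout, against 0.951, 2.03 and 1.34 in wild type, a change of 2.76 ± 0.19. In both, the lowest knockout library was far above the highest wild-type library. Nat8f2 was at 17.6, 20.9 and 20.0 FPKM in labelled IL-33 knockout, against 2.33, 5.87 and 5.80 in wild type, a change of 1.93 ± 0.27, again without overlap.

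Nat8 itself, the best characterised member, did not share this pattern. It was at 113, 105 and 87.2 FPKM in labelled IL-33 knockout, against 139, 125 and 90.0 in wild type, and the groups overlapped, with a change of -0.19 ± 0.17. Nat8f5 was at 26.2, 21.8 and 19.2 FPKM in labelled IL-33 knockout, against 56.4, 49.0 and 34.8 in wild type. Every knockout library was lower than every wild-type library, with means of 22.4 ± 3.56 and 46.7 ± 11.0 FPKM (SD, n = 3 each) and a change of -1.01 ± 0.19. Nat8f5 and Nat8f6 share few stretches, and the FPKM ratio of Nat8f6 to Nat8f5 was 3.67, 3.00 and 3.13 in labelled IL-33 knockout, against 0.0990, 0.189 and 0.194 in wild type.

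The make-up of NAT8 family transcript differed between these groups. The 6 copies summed to 405 ± 63.7 FPKM in labelled IL-33 knockout and 188 ± 34.1 in wild type. Nat8 made up 25.3 ± 3.05% of that sum in labelled IL-33 knockout and 62.3 ± 2.53% in wild type. Nat8f1 made up 42.3 ± 4.12% in labelled IL-33 knockout and 5.74 ± 1.48% in wild type. Nat8f1 was thus the most abundant copy in each labelled IL-33 knockout library, with an FPKM ratio to Nat8 of 1.82, 1.31 and 1.96, against 0.0645, 0.0954 and 0.119 in wild type. Nat8f5 took 5.54 ± 0.41% of the sum in labelled IL-33 knockout and 24.6 ± 1.66% in wild type.

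**Figure D2:**
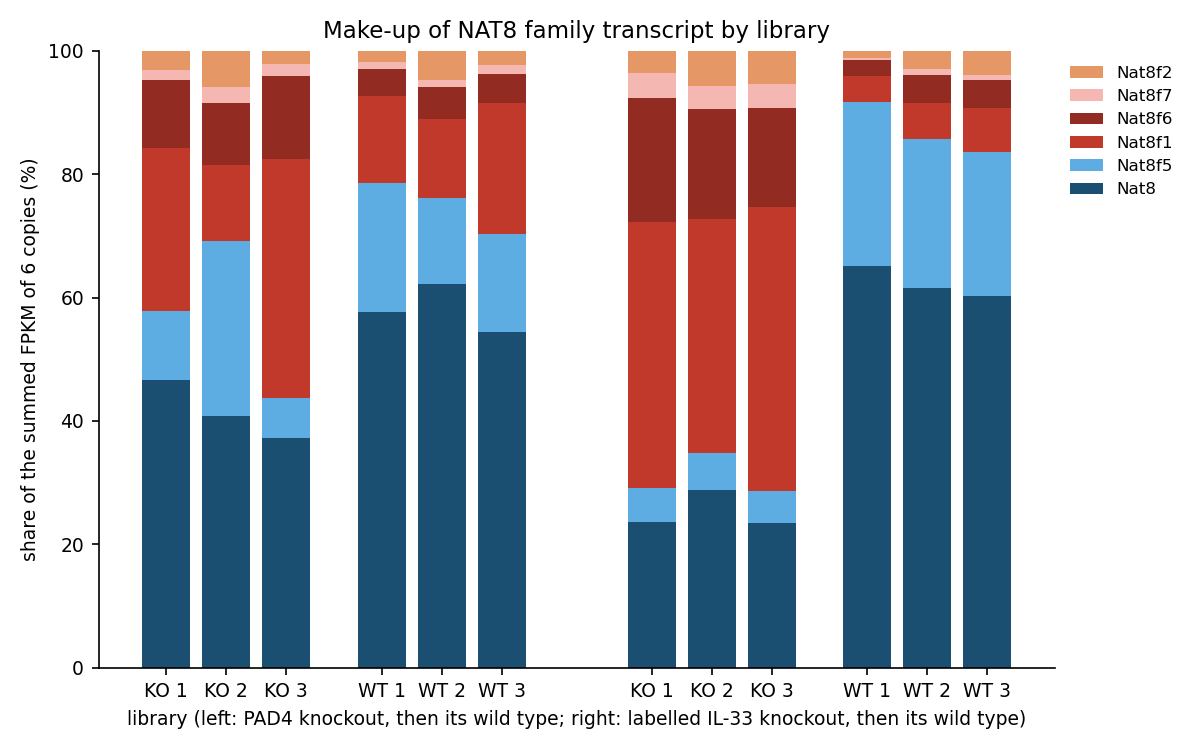
Share of the summed FPKM of 6 NAT8 copies taken by each copy, 1 bar per library, knockout bars left of the wild-type bars of the same set. In labelled IL-33 knockout, Nat8f1 and Nat8f6 fill most of the bar (42.3% and 18.1% on average), while Nat8 and Nat8f5 fill most of it in the wild type of that set (62.3% and 24.6%).

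In the PAD4 set, all 6 copies were higher in every knockout library than in any wild-type library, Nat8 and Nat8f5 included. Nat8 was at 64.9, 25.6 and 36.1 FPKM in PAD4 knockout, against 8.95, 8.77 and 11.9 in wild type, a change of 1.90 ± 0.34. Nat8f5 was at 15.7, 17.9 and 6.28 FPKM in PAD4 knockout, against 3.24, 1.97 and 3.45 in wild type, a change of 1.78 ± 0.32. It is the copy whose groups separate in opposite directions in the 2 sets; the change of Nat8 also differs in sign, with overlapping groups in the IL-33 set. Nat8f1 was at 36.9, 7.70 and 37.4 FPKM in PAD4 knockout, against 2.17, 1.80 and 4.64 in wild type, a change of 2.66 ± 0.44. Nat8f6 was at 15.3, 6.30 and 13.1 FPKM in PAD4 knockout, against 0.672, 0.720 and 0.996 in wild type, a change of 2.73 ± 0.28. For both, PAD4 knockout library 2, the one with the most colon and lung signal of its group, was the lowest of the 3. It was also the lowest for Nat8, Nat8f7, Keg1, Acy1 and Acy3. For Nat8f5 library 2 was the highest, and for Nat8f2 and Glyat it lay between the others. Nat8f2 was at 4.45, 3.73 and 2.08 FPKM in PAD4 knockout, against 0.277, 0.679 and 0.493 in wild type, a change of 1.55 ± 0.23. Nat8f7 was at 2.14, 1.61 and 1.87 FPKM in PAD4 knockout, against 0.194, 0.156 and 0.344 in wild type, a change of 1.22 ± 0.18. Nat8f2 and Nat8f7 lie below 0.5 FPKM on average in wild type and entered the test through the knockout group, and the added 1 in log2(FPKM + 1) understates the change of such low genes.

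The 6 copies summed to 99.7 ± 38.4 FPKM in PAD4 knockout and 17.1 ± 4.09 in wild type. Nat8 took 41.5 ± 4.68% of that sum in PAD4 knockout and 58.1 ± 3.90% in wild type. Nat8f6 took 11.5 ± 1.81% in PAD4 knockout and 4.67 ± 0.40% in wild type, while the shares of Nat8f1 overlapped, at 25.8 ± 13.2% in PAD4 knockout and 16.0 ± 4.60% in wild type. Shares of Nat8f5 overlapped too, with 15.4 ± 11.6% in PAD4 knockout and 16.9 ± 3.59% in wild type.

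**Figure D3:**
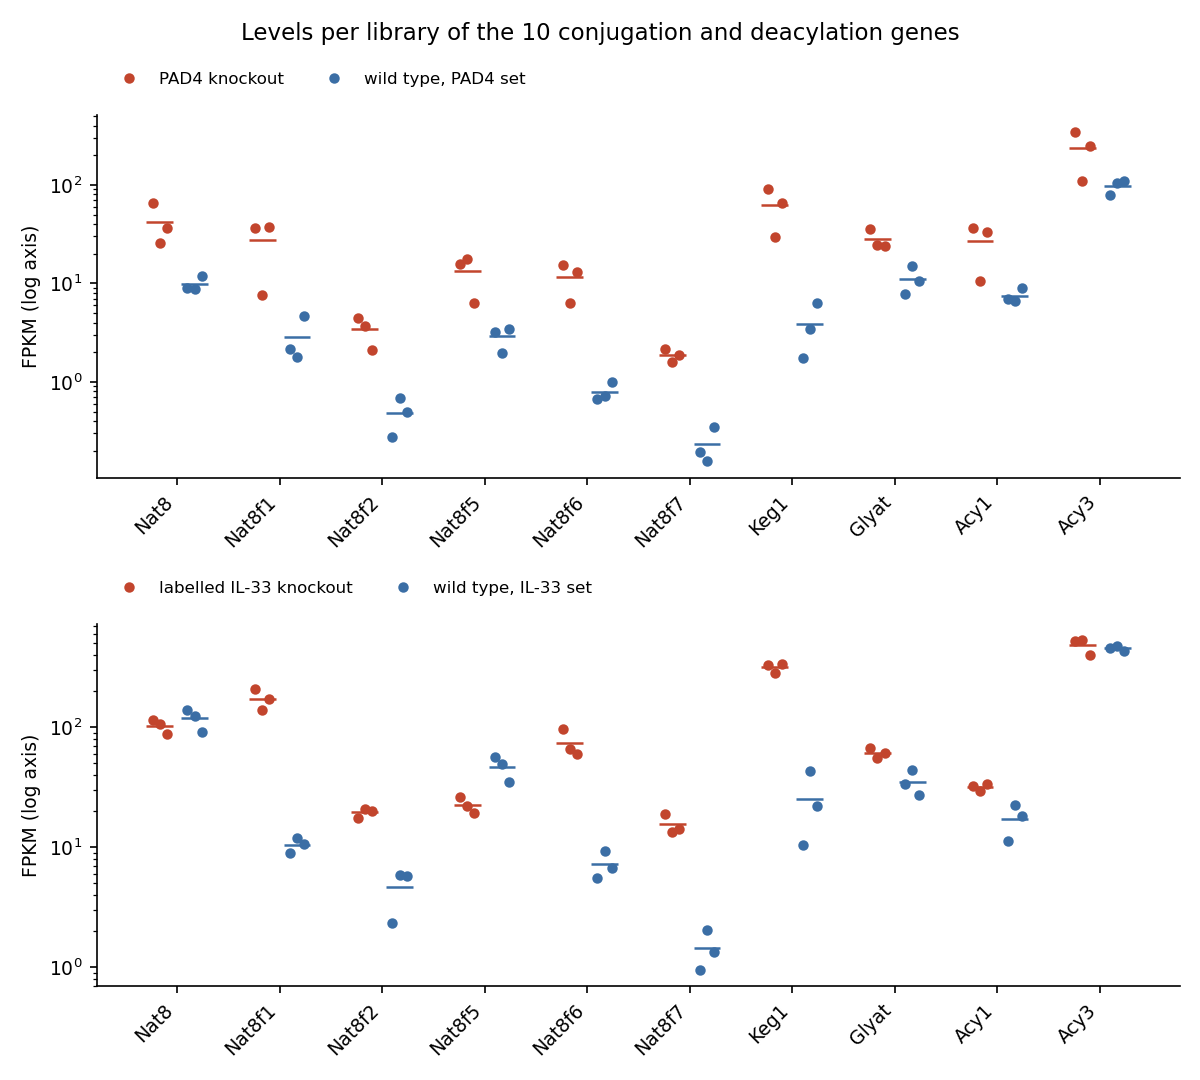
FPKM of each gene in every library on a log axis, knockout points left of wild-type points, with a line at the mean of 3 libraries; PAD4 set above, IL-33 set below. In the lower panel Keg1, Nat8f1, Nat8f6 and Nat8f7 show wide gaps between knockout and wild type, while the points of Nat8 and Acy3 overlap and those of Nat8f5 are lower in knockout.

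Keg1 had the largest change of the 10 genes in the PAD4 set. It was at 91.6, 29.6 and 65.4 FPKM in PAD4 knockout, against 1.76, 3.45 and 6.39 in wild type, and the lowest knockout library was well above the highest wild-type library. The means were 62.2 ± 31.1 and 3.87 ± 2.34 FPKM (SD, n = 3 each), a ratio of 16.1, and the change of 3.67 ± 0.40 ranks 5 among 13986 genes tested. Keg1 was at 330, 282 and 334 FPKM in labelled IL-33 knockout, against 10.4, 43.0 and 22.1 in wild type. The wild-type values were spread more widely in proportion than the knockout values, and the change of 3.80 ± 0.42 ranks 10 among 14513 genes. Glyat, which codes for the related enzyme, had a smaller change in both sets. It was at 36.0, 24.6 and 24.1 FPKM in PAD4 knockout, against 7.90, 15.2 and 10.5 in wild type, a change of 1.28 ± 0.31. Glyat was at 66.3, 55.2 and 61.3 FPKM in labelled IL-33 knockout, against 33.5, 44.1 and 27.4 in wild type, a change of 0.80 ± 0.17. In neither set did its groups overlap.

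The aminoacylase genes code for the reverse step. Acy1 was at 36.3, 10.6 and 33.5 FPKM in PAD4 knockout, against 6.88, 6.69 and 9.00 in wild type, a change of 1.54 ± 0.37. Here too PAD4 knockout library 2 was the lowest of its group and close to wild type. In the IL-33 set Acy1 was at 32.1, 29.4 and 33.6 FPKM in labelled IL-33 knockout, against 11.1, 22.4 and 18.1 in wild type, a change of 0.89 ± 0.22. Acy3 was the most abundant of the 10 genes in all 4 groups on the FPKM scale, which is per length of transcript. It was at 348, 111 and 249 FPKM in PAD4 knockout, against 78.9, 106 and 109 in wild type, so library 2 lies just above the wild-type range, and its change of 1.13 ± 0.39 did not pass the threshold. In the IL-33 set Acy3 was at 518, 529 and 401 FPKM in labelled IL-33 knockout, against 456, 474 and 429 in wild type, with overlapping groups and a change of 0.08 ± 0.12.

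The order of mean levels also differed between groups. In labelled IL-33 knockout, Acy3 was followed by Keg1, at 315 ± 28.9 FPKM, and then by Nat8f1, and neither overlapped its neighbours in the order. In the wild type of that set Acy3 was followed by Nat8, at 118 ± 25.0 FPKM, and then by Nat8f5, and the genes from Nat8f5 down to Nat8f2 each overlapped the next. In PAD4 knockout, Acy3 stood above the rest and the genes from Keg1 down to Nat8f6 each overlapped the next. In the wild type of the PAD4 set Acy3 was again clear of the others, with Glyat, Nat8 and Acy1 next and overlapping. The tables were normalized separately, so no level was compared across them.

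Of the 10 genes, 9 passed the threshold (limma, adjusted p under 0.05 over all genes) as higher in PAD4 knockout and 10 did not overlap in that direction. Among all genes tested 8.89% were called higher and 8.79% lower, and 17.2% did not overlap with knockout higher and 15.8% with knockout lower. In labelled IL-33 knockout 7 were called higher and 1 lower, with the same numbers not overlapping. Among all genes tested there, 22.2% were called higher and 16.8% lower, and 30.2% did not overlap with knockout higher and 24.3% with knockout lower. Nothing is read from these counts, since the genes were chosen with those contrasts known. Without PAD4 knockout library 2, 10 of the 10 passed as higher and the change of Acy3 was 1.59. Without wild-type library 1 of the PAD4 set Glyat and Acy1 no longer passed, without wild-type library 3 Glyat did not pass, and without labelled IL-33 knockout library 3 Acy1 did not.

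The colon signal moved with the groups of the PAD4 set, and a fit with a colon marker score of each library as a covariate, added after the data were seen, left only Keg1 of the 10 past the threshold, with a change of 2.64. Under that covariate the change was 1.72 for Nat8f5, 1.69 for Nat8f6, 1.36 for Nat8f2, 1.00 for Nat8f7, 0.95 for Glyat, 0.89 for Nat8f1, 0.66 for Nat8, 0.04 for Acy1 and -0.28 for Acy3. The summed colon signal does not overlap between the groups, so the parts of colon signal and genotype cannot be told apart. In the IL-33 set the summed colon signal too was lower in knockout with no overlap. Most of it was Lgals4, at 3.26 to 4.02 FPKM in labelled IL-33 knockout and 18.8 to 39.1 in wild type, and its part was not tested.

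**Figure D4:**
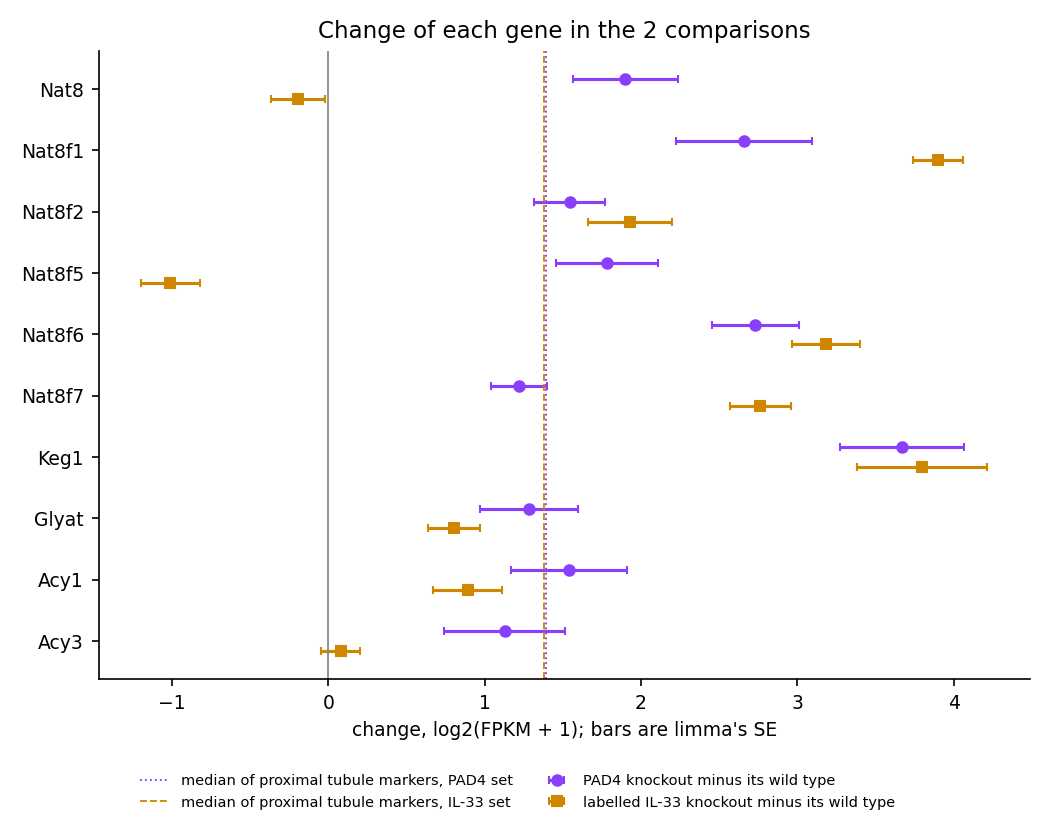
Change of each gene, knockout minus wild type in log2(FPKM + 1), with limma's SE as bars; circles for PAD4 knockout and squares for labelled IL-33 knockout. Vertical lines mark the median change of proximal tubule markers, 1.40 in the PAD4 set and 1.38 in the IL-33 set; Nat8f5 lies to the right of 0 in one set and to the left in the other.

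Genes that mark the proximal tubule, where these enzymes act, were set beside them. List counts here and below are to be read against the shares called over all genes tested. In PAD4 knockout 8.89% were higher and 8.79% lower, and in labelled IL-33 knockout 22.2% were higher and 16.8% lower. In PAD4 knockout 13 of 21 tested markers rose and 0 fell, with a median change of 1.40 against 0.02 over all genes tested; without wild-type library 1 the count was 7, and with the colon marker score as a covariate 1. Examples are Slc34a1, the main phosphate transporter, at 42.5 ± 21.6 FPKM in PAD4 knockout and 5.30 ± 2.03 in wild type (limma adjusted p = 0.000178), and Slc13a3, a dicarboxylate transporter, at 11.4 ± 3.78 and 2.10 ± 0.38 in the same groups (limma adjusted p = 0.000138). In labelled IL-33 knockout 14 of 22 rose and 2 fell, with a median of 1.38 against 0.04 over all genes. The endocytic receptor Lrp2 was at 69.1 ± 9.23 FPKM in labelled IL-33 knockout and 8.43 ± 1.82 in wild type (limma adjusted p = 3.42e-05). The 2 that fell there were Kap and Pck1 (changes -0.53 and -1.87). The summed FPKM of the 22 markers was 12006 to 15025 in labelled IL-33 knockout and 13522 to 18651 in wild type. It was 10067 to 25750 in PAD4 knockout and 5064 to 8286 in wild type. Most of each sum was Kap alone, at 7985 to 10286 FPKM in labelled IL-33 knockout and 11465 to 15661 in wild type. In the PAD4 set Kap was at 9626 to 24447 FPKM in knockout and 4743 to 7975 in wild type. The sums therefore do not describe the list. Single markers changed by 0.12 (Fbp1) to 2.68 (Slc34a1) in PAD4 knockout and by -1.87 (Pck1) to 4.83 (Gatm) in labelled IL-33 knockout. The change of Keg1 in labelled IL-33 knockout, and those of Nat8f1 and Nat8 in both, lie within these ranges. Against the median of these markers, Keg1 was higher by 2.28 in PAD4 knockout and by 2.42 in labelled IL-33 knockout, and Nat8f1 by 1.26 and 2.52. Nat8 lay 0.51 above that median in PAD4 knockout and at -1.57 relative to it in labelled IL-33 knockout. The part of tubule cell content or state in these values was not tested.

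Of the NAT8-related genes outside the 10, 3 were tested in each set and 2 passed as higher in each knockout. Nat8f3, whose coding sequence is 99.7% identical to that of Nat8f6, was at 25.8, 17.8 and 18.2 FPKM in labelled IL-33 knockout, against 1.66, 2.54 and 1.57 in wild type (change 2.88 ± 0.18, limma adjusted p = 5.44e-05). In PAD4 knockout Nat8f3 was at 2.59, 1.78 and 2.23 FPKM, against 0.197, 0.209 and 0.389 in wild type. The pseudogene Nat8b-ps, which shares 16.0% of its 100-base stretches with Nat8f1, was at 9.41, 5.23 and 7.25 FPKM in labelled IL-33 knockout, against 0.389, 0.530 and 0.393 in wild type. Nat8f3 in the PAD4 set and Nat8b-ps in both sets average under 0.5 FPKM in wild type and entered the test through the knockout group, so their calls, and the counts that hold them, give no support. With the colon marker score as a covariate none of the 3 was called in the PAD4 set. Nat8f4, 89.2% identical to Nat8f2 in coding sequence, did not pass in either comparison (limma adjusted p = 0.854 in the PAD4 set and 0.102 in the IL-33 set).

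Enzymes that prepare acyl-CoAs or join them to amino acids were read as a list. In PAD4 knockout 5 of 6 tested rose and 0 fell (median 1.33), and in labelled IL-33 knockout 5 of 7 rose and 0 fell (median 0.50). Acsm2, a medium-chain acyl-CoA synthetase that activates benzoate for glycine conjugation, was at 17.3 ± 5.80 FPKM in PAD4 knockout and 5.62 ± 0.69 in wild type (limma adjusted p = 0.00256). Acsm2 was also higher in the other set, at 204 ± 36.8 FPKM in labelled IL-33 knockout and 143 ± 16.9 in wild type (limma adjusted p = 0.0297). Acsm5, of the same synthetase family, was at 16.5 ± 2.32 FPKM in labelled IL-33 knockout and 3.47 ± 0.95 in wild type (limma adjusted p = 0.000169), and at 4.05 ± 1.43 in PAD4 knockout and 0.633 ± 0.327 in wild type (limma adjusted p = 0.000296). Acnat1, an acyl-CoA to amino acid N-acyltransferase, was at 7.43 ± 0.76 FPKM in labelled IL-33 knockout and 2.66 ± 1.35 in wild type (limma adjusted p = 0.00848). The IL-33 count includes Gm4952, which also averages under 0.5 FPKM in wild type and entered through the knockout group. None of this list was called in the PAD4 set with the colon marker score as a covariate. Leaving out labelled IL-33 knockout library 1 or 3, or wild-type library 3 of that set, left 3 genes of this list called.

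Other N-acyl and dipeptide hydrolases, the enzymes nearest in role to Acy1 and Acy3, rose for 8 of 9 tested genes in labelled IL-33 knockout and for 3 of 7 in PAD4 knockout, and none fell in either. Medians were 0.77 and 0.70. Aspa, which splits N-acetylaspartate, was at 10.6 ± 0.86 FPKM in labelled IL-33 knockout and 2.35 ± 0.45 in wild type (limma adjusted p = 9.93e-05). Aspa was at 1.62 ± 0.80 FPKM in PAD4 knockout and 0.563 ± 0.046 in wild type (limma adjusted p = 0.0325). Apeh, which removes N-acetylated residues from peptides, was at 28.2 ± 3.59 FPKM in labelled IL-33 knockout and 11.6 ± 2.43 in wild type (limma adjusted p = 0.00108). The PAD4 count was 0 without wild-type library 1 of that set, 1 without wild-type library 3 and 1 with the colon marker score as a covariate, and it includes Folh1, which entered the test through the knockout group.

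Genes of the steps that make the substrates of NAT8, from glutathione transfer to the cysteine conjugate, were read together with cysteine conjugate lyases. Their changes were mixed. In labelled IL-33 knockout 8 of 22 tested genes rose and 6 fell (median 0.29), and in PAD4 knockout 6 of 23 rose and 1 fell (median 0.59). Gsta2, a glutathione transferase, was at 133, 143 and 147 FPKM in labelled IL-33 knockout, against 269, 226 and 260 in wild type (change -0.83 ± 0.10, limma adjusted p = 0.000620). In PAD4 knockout Gsta2 was at 106, 94.0 and 35.4 FPKM, against 22.1, 25.5 and 24.0 in wild type (change 1.53 ± 0.38, limma adjusted p = 0.00834). It thus passed in opposite directions in the 2 sets, as Nat8f5 was higher in one and lower in the other; the difference was not tested. Kyat3, a cysteine conjugate lyase that competes for the same substrates, was at 8.12 ± 1.14 FPKM in labelled IL-33 knockout and 4.30 ± 1.18 in wild type (limma adjusted p = 0.0108). The number that rose in PAD4 knockout was 11 without PAD4 knockout library 2, 0 without wild-type library 1, 3 without wild-type library 3 and 0 with the colon covariate, so this count rests on single libraries.

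**Figure D5:**
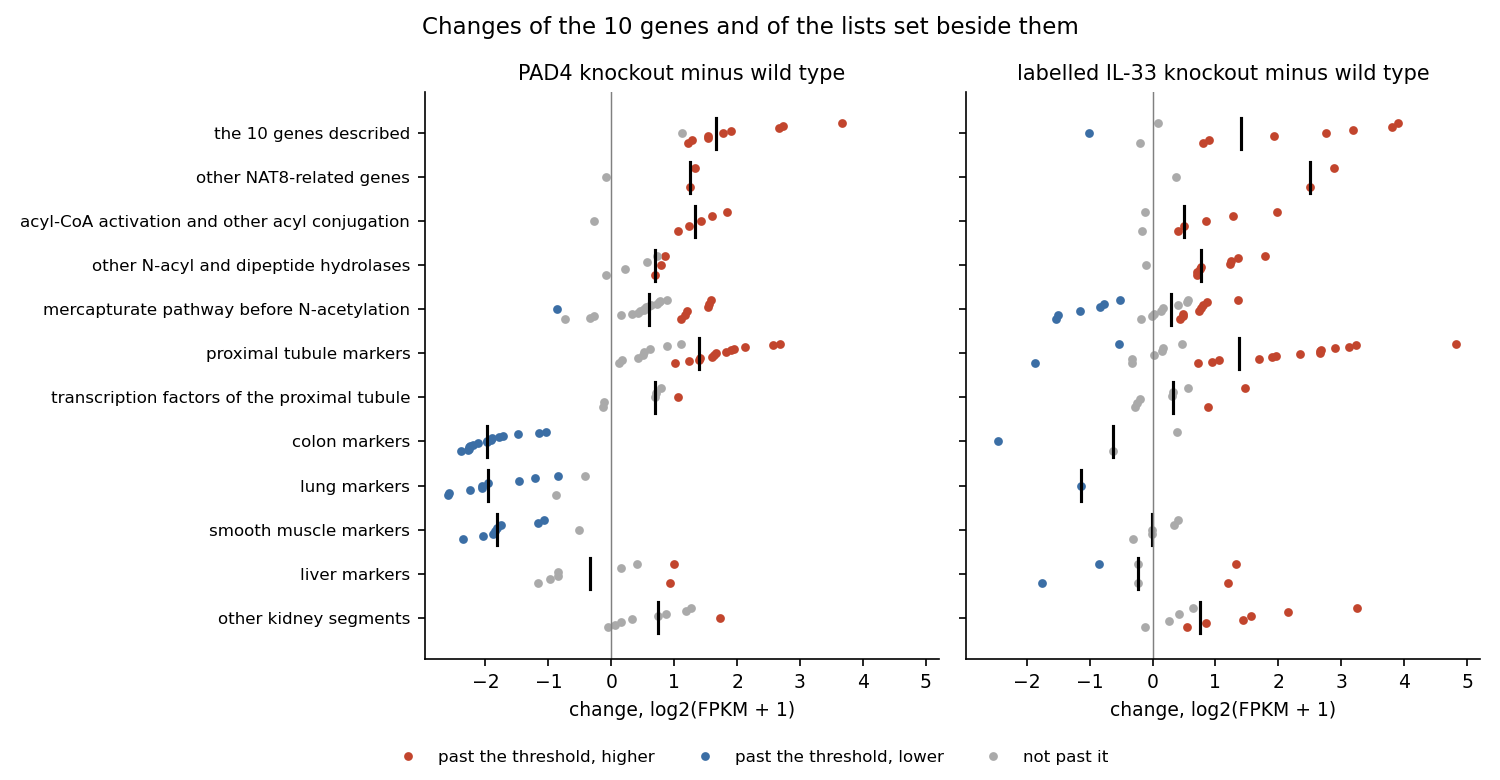
Change of the 10 genes and of each gene in the lists set beside them, knockout minus wild type in log2(FPKM + 1), PAD4 set left and IL-33 set right; coloured points passed the threshold, grey points did not, and black bars are medians. In the PAD4 set colon, lung and smooth muscle markers lie left of 0 (medians -1.98, -1.96 and -1.81), while proximal tubule markers lie right of 0 in both sets (medians 1.40 and 1.38).

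Among 8 transcription factors of the proximal tubule tested in the IL-33 set, 2 rose and 0 fell: Hnf4a, at 106 ± 13.1 FPKM in labelled IL-33 knockout and 58.3 ± 14.7 in wild type (limma adjusted p = 0.00819), and Maf, at 15.7 ± 2.32 FPKM in labelled IL-33 knockout and 4.99 ± 0.71 in wild type (limma adjusted p = 0.000279). The count of 2 among 8 is near the 22.2% of all genes called higher there, so nothing is read from it. Neither Hnf4a nor Maf passed in the PAD4 set, where Hnf4a was at 28.7 ± 8.98 FPKM in PAD4 knockout and 17.1 ± 2.90 in wild type (limma adjusted p = 0.140).

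Markers of other cells and tissues complete the lists. In PAD4 knockout 16 of 16 colon markers, 9 of 11 lung markers and 8 of 9 smooth muscle markers fell, and without library 2 the counts were 16, 11 and 8. The lung genes Lamp3 and Cldn18 average 0.410 and 0.232 FPKM in PAD4 knockout and entered the test through wild type. Their calls, and the counts that hold them, give no support. Summed FPKM of smooth muscle markers was 63.2 to 242 in PAD4 knockout and 347 to 750 in wild type. The mucin gene Muc2 was at 3.32 ± 1.88 FPKM in PAD4 knockout and 15.2 ± 4.88 in wild type (limma adjusted p = 0.000709), and the surfactant gene Sftpd at 1.52 ± 1.35 and 10.1 ± 2.12 in the same groups (limma adjusted p = 0.000133). In labelled IL-33 knockout 1 of 3 tested colon markers and 1 of 1 lung marker fell, and none of the 5 smooth muscle markers tested passed. That lung marker, Ager, averages under 0.5 FPKM in labelled IL-33 knockout and entered the test through wild type. The call of Ager, and the count that holds it, therefore give no support. Of liver markers, a tissue that also expresses Glyat and Acy1, 2 of 8 tested rose in PAD4 knockout and 0 fell, with a median change of -0.34, so the 2 that rose (Apoh and Ttr) do not stand for the list. The changes of Apoa1, Hpx, Ahsg and Alb were -0.85, -1.17, -0.84 and -0.98 and did not pass, but 4 liver markers were called lower with TPM scaling, with array weights, with the replicate block, and without PAD4 knockout library 1 or 2. Of 6 liver markers tested in the IL-33 set, 2 rose and 2 fell in labelled IL-33 knockout, Apoh among those that fell (change -1.76). Markers of other kidney segments rose for 1 of 9 in PAD4 knockout and 6 of 10 in labelled IL-33 knockout, and none fell. The first count is near the 8.89% of all genes called higher in PAD4 knockout. The part of these other tissues and segments in the levels of the 10 genes was not tested beyond the covariate fit above.

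The genes whose pattern over the 12 libraries was most like each of 5 genes were sought among 4183 other genes tested in both sets with a mean of at least 5 FPKM, by the root mean square difference of log2(FPKM + 1), centred on the mean of each set. Closest to Keg1 were Pter, an enzyme reported to hydrolyse N-acetyltaurine, at 0.61, BC024386 at 0.63 and Gm853 at 0.65, and none came as near as the partners of the other genes. For Nat8 the nearest were Cox7c, Cox4i1 and Ndufa2, subunits of the respiratory chain, at 0.18 each. Glyat was nearest to Ndufaf3 at 0.19 and to Sdhd and Asna1 at 0.20 each. Acy1 was nearest to Mpv17l at 0.13, Haao at 0.18 and Eci3 at 0.19, and Acy3 to Fah, the last enzyme of tyrosine breakdown, at 0.13, Hibadh at 0.14 and Slc25a17 at 0.15. Among the 10 genes the closest pair was Nat8 and Acy3 at 0.35, followed by Nat8f1 and Nat8f6 at 0.41, while Nat8 and Nat8f1, neighbours in sequence, lay 1.53 apart.

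Genes next to these loci on the chromosome were called at shares to be read against those over all genes, which were 8.89% higher and 8.79% lower in PAD4 knockout and 22.2% higher and 16.8% lower in labelled IL-33 knockout. Of 9 neighbours of the NAT8 cluster, 1 rose and 0 fell in PAD4 knockout, and 2 rose and 1 fell in labelled IL-33 knockout. Tprkb, which lies within the cluster and encodes a subunit of a tRNA-modifying complex, was the 1 that rose in both, at 14.3 FPKM in labelled IL-33 knockout and 7.86 in wild type on average (change 0.79 ± 0.11, limma adjusted p = 0.00144) and at 6.37 in PAD4 knockout and 2.54 in wild type (change 1.02 ± 0.27, limma adjusted p = 0.0122). Cct7 and Dusp11, on either side of the cluster, did not pass in either comparison (limma adjusted p from 0.134 to 0.836). Of 8 neighbours of Glyat and Keg1, which lie close together, 0 rose and 1 fell in PAD4 knockout and 2 rose and 0 fell in labelled IL-33 knockout. Of 8 neighbours of Acy1, 1 rose and 0 fell in PAD4 knockout, and 2 rose and 1 fell in labelled IL-33 knockout. Among them Abhd14b, which encodes a hydrolase-fold protein, rose in both: it was at 114 FPKM in labelled IL-33 knockout and 42.2 in wild type on average (limma adjusted p = 0.000492) and at 37.8 in PAD4 knockout and 10.8 in wild type (limma adjusted p = 0.00330). Of 8 neighbours of Acy3, 3 rose in PAD4 knockout, and 1 rose and 1 fell in labelled IL-33 knockout. Aldh3b3, which rose in both, averages 0.465 FPKM in wild type of the PAD4 set and 0.393 in that of the IL-33 set. It entered both tests through the knockout group, so its calls, and the counts that hold them, give no support.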

How the data were processed

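FPKM per gene and library is what the authors deposited, as 1 table for each set. Libraries were made from polyadenylated RNA and keep strand, per the labels' protocols. Among the tools in the submitters' processing notes, HISAT2 aligns reads and StringTie assembles and quantifies transcripts; versions and the genome build are not stated. Ensembl numbers were matched to GENCODE symbols for 30212 of 32199 rows (PAD4 set) and 29690 of 31719 (IL-33 set). Column names of the wild type of the IL-33 set give no genotype. Those columns were taken as wild type because the other columns of that set are named as knockout. The number in each name was matched to the sample titles, and 0 columns were left without a sample. Low values did not resolve into whole reads, so depth is unknown.

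Each table was fitted alone: log2(FPKM + 1), limma 3.58.1 (R 4.3.3, lmFit, eBayes with trend), genes with a mean of at least 0.5 FPKM (13986 in the PAD4 set, 14513 in the IL-33 set), two-sided p-values with Benjamini-Hochberg adjustment over all genes and a threshold of 0.05, after a test on simulated data. Changes are knockout minus wild type, with limma's moderated SE. Per the labels, the 3 libraries of a group are separate biological replicates. The genes and lists were chosen with earlier results of these data known. Of each list, most genes named come from the 4 with the smallest adjusted p in the PAD4 comparison among those past the threshold in either comparison. Outside that rule, Lgals4, Guca2a, Gstt2, Kap, Pck1, Gatm, Fbp1, Apoa1, Hpx, Ahsg and Alb were named after their values were seen. So were genes named for entering the test through a single group. Cct7, Dusp11, Tprkb and Abhd14b were picked among neighbours after their values were seen, as was Nat8f4. A result on a further transcription factor is not reported here. Other pseudocounts (0.1 and 0.5), filters, scalings, variance models, a replicate block and each library left out were tried.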

Additional observations from a re-analysis of the deposited data

Results flagged for a closer look

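Nat8f5 was flagged because its 3 knockout libraries lay above all wild-type libraries of the PAD4 set, at 6.28 to 17.9 FPKM in PAD4 knockout and 1.97 to 3.45 in wild type, while in the IL-33 set they lay below, at 19.2 to 26.2 FPKM in labelled IL-33 knockout and 34.8 to 56.4 in wild type. The changes differ by 2.79 in log2(FPKM + 1). The difference was not tested, and the sets also differ in batch. This pattern is not particular to Nat8f5. Among genes of the lists above, Pck1, Kap, Gsta2, Gstt2 and Apoh also separated without overlap. Each was higher in PAD4 knockout and lower in labelled IL-33 knockout.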

How the results depend on the processing

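Under every planned setting each of the 10 genes kept the direction of its change in both comparisons; in the PAD4 set the filter at 2 FPKM removed Nat8f2 and Nat8f7. With no filter on mean FPKM, limma called 0 genes higher and 0 lower in the PAD4 set and 0 of the 10 as higher, while 6053 genes, the 10 included, had an unadjusted p under 0.05; the call of Acy1 was also lost in the IL-33 set. Other counts for the PAD4 set that moved were 762 genes lower with a mean FPKM of at least 2, 1916 higher after quantile normalization, and 2267 higher and 2939 lower with array weights, a fit that did not converge fully; the cause was not tested. Leaving out 1 library at a time gave 352 to 1770 genes higher and 515 to 1764 lower in the PAD4 set, and 2072 to 3903 higher and 1554 to 2662 lower in the IL-33 set; of the 10 genes 7 to 10 were then higher in the PAD4 set and 6 to 7 in the IL-33 set, with 1 lower. The lost calls were Glyat without wild-type library 1 or 3 and Acy1 without wild-type library 1 in the PAD4 set, and Acy1 without labelled IL-33 knockout library 3. Acy3 passed in the PAD4 set under 7 settings, among them without PAD4 knockout library 2. With the colon marker score as a covariate, added after seeing the data, limma called 47 genes higher and 15 lower (571 had an unadjusted p under 0.05), only 1 of the 10 genes (Keg1) was higher, and the change of Acy3 was -0.28. The summed FPKM of the NAT8 copies changed by 2.42 in the PAD4 set and 1.11 in the IL-33 set, where the mean change of the copies was 1.97 and 1.76. Replicate numbers did not pair the libraries (correlations of same-numbered deviations from -0.146 to 0.134); with the replicate block 951 genes were higher and 1033 lower in the PAD4 set and 3065 and 2271 in the IL-33 set, and 9 and 7 of the 10 genes were higher. Depth is unknown, so the precision of low values cannot be given.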
